A study of Mus musculus with 16 samples.

Results

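The genes described are the 29 that carry pyruvate into the mitochondrial matrix, oxidise it in the pyruvate dehydrogenase complex, switch that complex off and on, and run the steps of the tricarboxylic acid (TCA) cycle. They were taken by symbol from a count table of 54108 named genes, and the set was proposed with earlier results of these data known. All 29 were among the 16051 genes with enough counts to test. The tissue was heart ventricle of 8-week-old mice. Control libraries came from mice of genotype Rbpms fl/fl, which carry the floxed alleles with no Cre given in the labels. The cardiac knockout (cKO) libraries came from Myh6-Cre, Rbpms fl/fl mice, in which the cardiomyocyte-active Myh6 promoter drives Cre. Cre is given for the cKO mice alone, so the presence of Cre and the loss of Rbpms, which encodes an RNA-binding protein, cannot be told apart. Each genotype had 4 libraries, 3 from males and 1, replicate 3, from a female. The labels give no pooling and no litter, and every p-value therefore covers the spread among these libraries, which may be partly technical. A further 8 libraries of newborn ventricle (postnatal day 1) were not analysed here.

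In the heart, pyruvate from glycolysis and lactate crosses the inner mitochondrial membrane through the pyruvate carrier and is converted to acetyl-CoA by the pyruvate dehydrogenase complex. Kinases of the Pdk family phosphorylate the E1 alpha subunit and shut the complex down, and phosphatases of the Pdp family remove the phosphate and restore activity, so the balance between them sets how much glucose carbon enters the TCA cycle. Fatty acid oxidation, the main fuel of the adult heart, delivers its acetyl-CoA downstream of this switch, and the cycle oxidises acetyl-CoA from both sources.

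The depth was 20190334 to 24540433 counts per library, and members other than Pdk3 had at least 674 reads in every library. Rbpms, the targeted gene, measured 191, 154, 193 and 102 CPM in control libraries 1 to 4 and 38.8, 34.5, 27.1 and 26.9 CPM in cKO libraries 1 to 4, so every cKO library was below every control (log2 fold change -2.33, adjusted p = 3.54e-05). Its paralog Rbpms2 measured 43.7 ± 6.88 CPM in controls and 22.9 ± 4.12 CPM in cKO (log2 fold change -0.93, adjusted p = 0.00110). CPM are counts scaled to the library size after TMM factors, and values with ± are mean and SD (n = 4). A gene was said to rise or fall where the quasi-likelihood test of edgeR, adjusted over all tested genes, gave p under 0.05. Of 13 cardiomyocyte markers 4 fell (Tnni3, Ryr2, Atp2a2 and Ckm), and the summed level of all 13 was 61012.8 to 79259.2 CPM in controls and 51390.2 to 60717.2 CPM in cKO. Fibroblast markers rose for 9 of 9, from a sum of 2587 to 3496 CPM to 5379 to 6274 CPM, and 0 of 8 endothelial markers passed in either direction, with 0 at an unadjusted p under 0.05. Ventricle is a mixed tissue, so fewer cardiomyocytes and less RNA per cardiomyocyte cannot be told apart, and the part of these marker changes in the results was not tested.

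Transcripts of 16 of the 29 members fell in cKO ventricle and 0 rose. Among all tested genes, 19.3% were called, 9.64% lower and 9.64% higher. The other 13 members did not pass, although 28 of 29 estimates lay below 0. The median log2 fold change of the members was -0.36, with a range of -1.21 to 0.17, against 0.01 over all tested genes. At an unadjusted p under 0.05 the count was 24 members lower and 0 higher, against 2549 lower and 2505 higher of all 16051 tested genes, and DESeq2 and limma-voom also called 0 members higher. For 17 members every cKO library lay below every control library, an arrangement found for 11.8% of tested genes. Summed over members, controls held 17510.9 to 19768.1 CPM (18541.8 ± 1057.8) and cKO libraries 12581.3 to 14470.2 CPM (13661.8 ± 842), so the groups did not overlap.

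**Figure D1:**
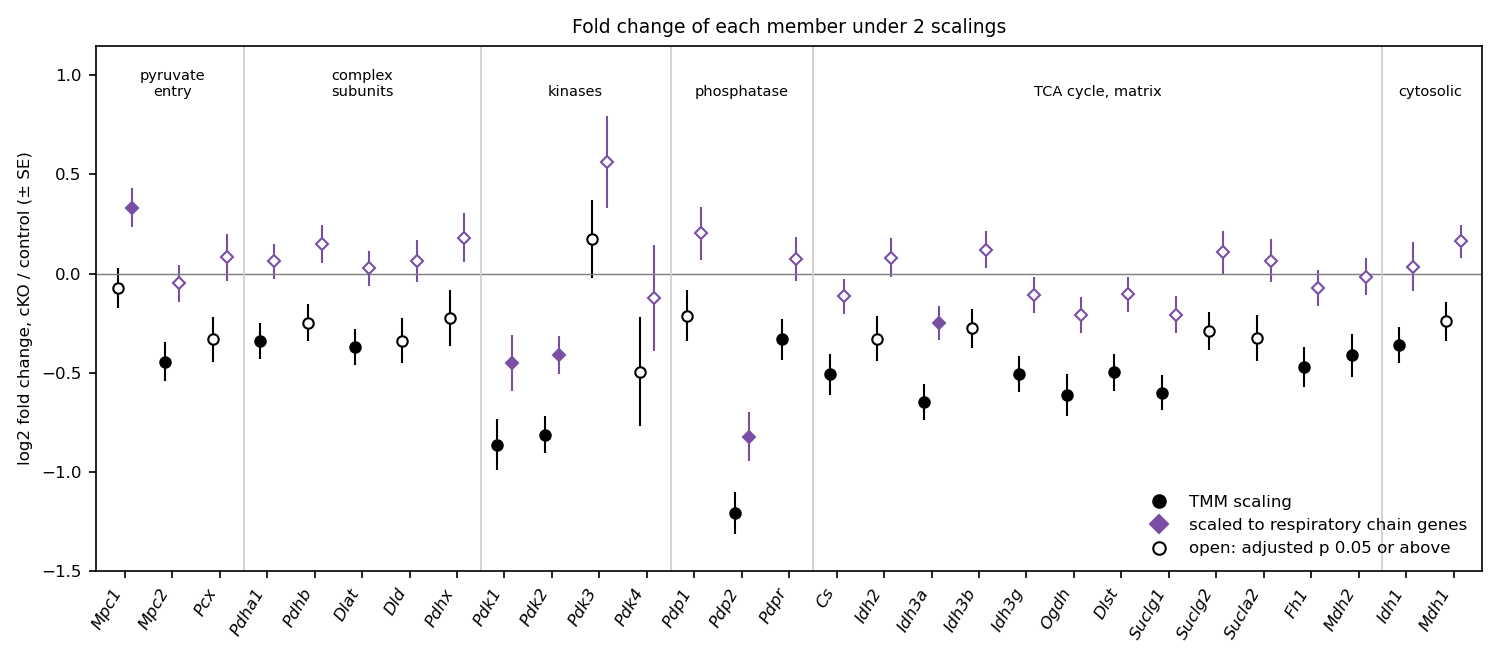
Log2 fold change (cKO over control, 4 libraries each) of each member with its standard error, grouped by role, under TMM scaling (circles) and scaled to respiratory chain genes (diamonds); filled symbols passed the test. Under TMM scaling Pdp2 lies lowest at -1.21, then Pdk1 at -0.86 and Pdk2 at -0.81, with Pdk3 alone above 0, at 0.17; the diamonds lie higher for every member.

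These directions are relative to the whole transcriptome. The libraries were also scaled to the summed counts of 87 nuclear-encoded respiratory chain genes, pseudogenes among them. That moved the median of all genes by 0.40 on the log2 scale. Under it 4 members were lower (Pdp2, Pdk1, Pdk2 and Idh3a), 1 was higher (Mpc1) and the members' median was 0.03. Over all 16051 tested genes the same scaling gave 343 lower and 7827 higher, with a median of 0.40. Of those respiratory chain genes 80 were tested, and 56 fell under the usual scaling, with a median of -0.35, close to that of the members. Scaling by total counts left 13 members lower, with Pdha1 (adjusted p = 0.0673), Pdpr (0.0837) and Idh1 (0.0950) no longer called.

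Of the subunits that bring pyruvate into the matrix, Mpc2 fell and Mpc1 did not pass. The mitochondrial pyruvate carrier is a dimer of Mpc1 and Mpc2. Mpc2 measured 163, 195, 195 and 205 CPM in control libraries 1 to 4 and 136, 143, 121 and 157 CPM in cKO libraries 1 to 4, and all cKO libraries were below all controls, a 1.36-fold fall (log2 fold change -0.44, SE 0.0981, adjusted p = 0.00798). Mpc1 measured 188, 224, 238 and 257 CPM in control libraries 1 to 4 and 210.2, 205, 209 and 239 CPM in cKO libraries 1 to 4, so the groups overlapped (log2 fold change -0.07, SE 0.0995, adjusted p = 0.673). The log2 ratio of Mpc2 to Mpc1 within a library differed by -0.38 in cKO, and its groups did not overlap. Per kilobase of exon, Mpc2 made up 19.2 ± 0.65% of the carrier transcripts in controls and 15.5 ± 1.02% in cKO. Reads of Mpc1 may be shared with an antisense gene, 4930506C21Rik, whose exons overlap it by 217 bp, if counting ignored strand. Pyruvate carboxylase (Pcx), which makes oxaloacetate from pyruvate to refill the cycle, did not pass: it measured 43.3 ± 7.13 CPM in controls and 34.4 ± 2.25 CPM in cKO (log2 fold change -0.33, adjusted p = 0.0624), with adjusted p = 0.0314 without control replicate 1 and 0.0442 without control replicate 2.

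In the pyruvate dehydrogenase complex 2 of 5 subunit genes fell, Pdha1 and Dlat. Pdha1, the X-linked E1 alpha subunit whose serines the kinases phosphorylate (chromosome X, 160122209 to 160138413, minus strand; GRCm38), measured 860.5, 981, 1118 and 985 CPM in control libraries 1 to 4 and 782, 777, 735 and 824 CPM in cKO libraries 1 to 4. The groups did not overlap, and the fall was 1.26-fold (log2 fold change -0.34, SE 0.0905, adjusted p = 0.0216). Dlat, the E2 core that transfers the acetyl group, measured 618, 634, 588 and 712 CPM in control libraries 1 to 4 and 506, 509.7, 429 and 530.1 CPM in cKO libraries 1 to 4. It was also lower in every cKO library, 1.29-fold (log2 fold change -0.37, SE 0.0915, adjusted p = 0.0147). Pdhb, the E1 beta subunit, measured 456, 492, 568 and 485 CPM in control libraries 1 to 4 and 425, 402, 386 and 473 CPM in cKO libraries 1 to 4, where the highest cKO library exceeded the lowest control, and it did not pass (log2 fold change -0.25, SE 0.0929, adjusted p = 0.0872). Dld, the E3 subunit shared with the oxoglutarate complex, measured 585 ± 85.5 CPM in controls and 463 ± 47.3 CPM in cKO (log2 fold change -0.34, adjusted p = 0.0559), and Pdhx, which tethers E3 to the core, measured 161 ± 26.9 CPM in controls and 138 ± 26.1 CPM in cKO (log2 fold change -0.22, adjusted p = 0.317); neither passed, though Dld did without control replicate 1 (adjusted p = 0.0258) or cKO replicate 4 (0.0372). The Pdha1 call was lost without control replicate 3 (adjusted p = 0.0595) and without cKO replicates 1, 2 or 3 (0.0660, 0.0528 and 0.0631), and in males alone (log2 fold change -0.24, adjusted p = 0.138).

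Kinase transcripts fell for Pdk1 and Pdk2 and did not pass for Pdk3 and Pdk4. Pdk2, an abundant heart isoform (chromosome 11, 95026258 to 95041354, minus strand; GRCm38), measured 509.8, 419, 505 and 544 CPM in control libraries 1 to 4 and 281, 309.6, 275 and 261 CPM in cKO libraries 1 to 4. Every cKO library was well below the lowest control, a 1.76-fold fall (log2 fold change -0.81, SE 0.0942, adjusted p = 0.000193). Pdk1, whose gene is a known target of hypoxia signalling (chromosome 2, 71873224 to 71903858, plus strand), measured 274, 279, 389 and 287 CPM in control libraries 1 to 4 and 159, 164, 201 and 153 CPM in cKO libraries 1 to 4. Again the groups were apart, by 1.82-fold (log2 fold change -0.86, SE 0.127, adjusted p = 0.000776), with the female control, replicate 3, highest among controls and the female cKO library highest among cKO. Both kept their call in all 8 fits that left out a library and under the respiratory chain scaling (Pdk1 -0.45, adjusted p = 0.0182; Pdk2 -0.41, adjusted p = 0.00417).

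Pdk4, the isoform induced by fasting and by PPAR signalling (chromosome 6, 5483351 to 5496309, minus strand), was the most variable member. It measured 921, 1027, 368 and 740.1 CPM in control libraries 1 to 4 and 377, 741, 498 and 553 CPM in cKO libraries 1 to 4. The control female was the lowest of all 8 libraries, the other controls were between 740.1 and 1027 CPM, and the groups overlapped (log2 fold change -0.49, SE 0.275, adjusted p = 0.249). The coefficient of variation was 37.9% in controls and 28.0% in cKO. Without control replicate 3 the log2 fold change was -0.72 and passed (adjusted p = 0.0229), and in males alone it was -0.68 (adjusted p = 0.0459). Pdk3, scarce in this tissue, measured 5.57, 5.73, 3.37 and 4.02 CPM in control libraries 1 to 4 and 6.0, 4.48, 5.50 and 5.07 CPM in cKO libraries 1 to 4 and the groups overlapped (log2 fold change 0.17, SE 0.196, adjusted p = 0.600). Per kilobase, the 4 kinases summed to 415.3 ± 69.0 CPM/kb in controls and 267.4 ± 47.0 CPM/kb in cKO. The groups overlapped, with a sum of 315.9 CPM/kb in control replicate 3 and 331.8 CPM/kb in cKO replicate 2. Pdk4 made up 33.2% to 63.2% of that sum in controls and 49.0% to 63.6% in cKO, and Pdk2 made up 28.6% to 50.5% in controls and 29.5% to 40.5% in cKO. Both pairs of ranges overlapped.

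The phosphatases held the steepest fall among the members. Pdp2, a catalytic subunit (chromosome 8, 104591451 to 104599026, plus strand; GRCm38), measured 79.7, 68.5, 77.8 and 61.5 CPM in control libraries 1 to 4 and 30.6, 33.1, 26.7 and 34.2 CPM in cKO libraries 1 to 4. Each cKO library had less than the lowest control by a wide gap, and the mean fell 2.31-fold (log2 fold change -1.21, SE 0.106, adjusted p = 4.11e-05). Pdp1, the calcium-stimulated catalytic subunit of muscle, measured 71.2, 79.0, 109.8 and 94.6 CPM in control libraries 1 to 4 and 72.7, 67.6, 86.6 and 79.3 CPM in cKO libraries 1 to 4, with overlapping groups (log2 fold change -0.21, SE 0.130, adjusted p = 0.299). Pdpr, the regulatory subunit, measured 188, 187, 186 and 224 CPM in control libraries 1 to 4 and 165, 178, 151 and 131 CPM in cKO libraries 1 to 4. All cKO libraries were below the controls and it passed narrowly (log2 fold change -0.33, SE 0.103, adjusted p = 0.0433), but leaving out any of control replicates 1, 2 or 4 or cKO replicates 1, 3 or 4 lost the call (adjusted p = 0.0634 to 0.114). Its exons also overlap those of 9430091E24Rik on the other strand by 90 bp. Within libraries, the log2 ratio of Pdp2 to Pdp1 differed by -1.01 in cKO, and its share of both catalytic transcripts per kilobase went from 39.4 ± 5.80% to 24.5 ± 3.51%, with ranges of 34.0% to 47.0% and 19.6% to 27.9%.

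**Figure D2:**
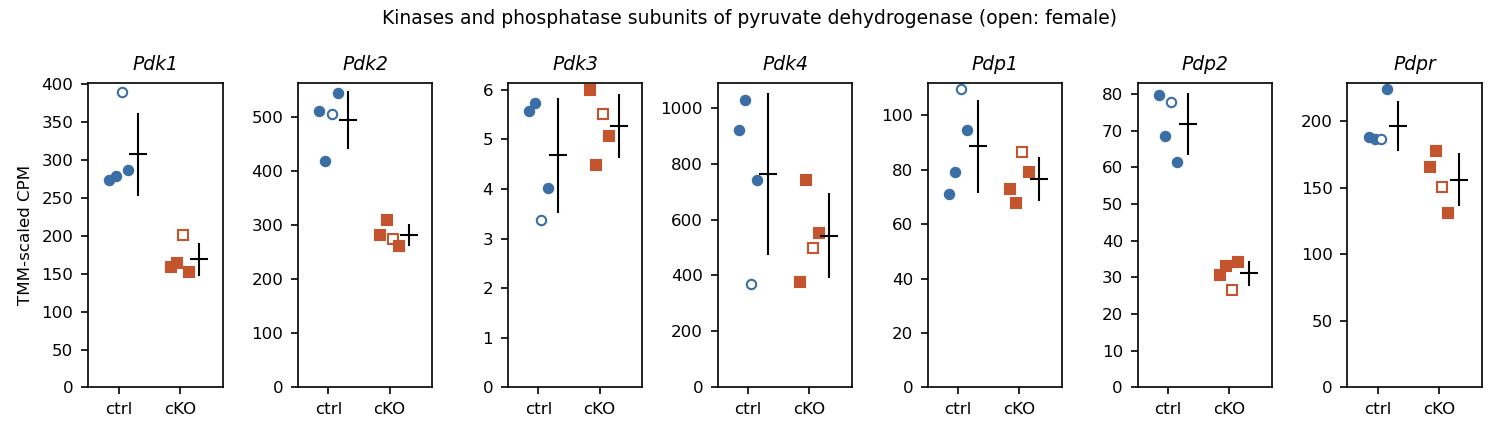
CPM of the kinases and phosphatases in each library (open symbols, females), with the mean and SD of 4 libraries per genotype. Pdk1, Pdk2, Pdp2 and Pdpr separate by genotype, whereas the Pdk4 points of both genotypes overlap, with control replicate 3 at 368 CPM.

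Against the E1 alpha target Pdha1, Pdk1, Pdk2 and Pdp2 were lower in relative amount. The log2 ratio to Pdha1 within a library changed by -0.52 for Pdk1, -0.47 for Pdk2 and -0.87 for Pdp2, and the groups did not overlap for any of these. These pairs, and those of the other ratios given, were chosen with the fold changes known, so the ratios are descriptions. Other ratios examined overlapped between genotypes. They differed in cKO by 0.37 for Pdk4 to Pdk2, -0.32 for Suclg1 to Suclg2 and -0.18 for Cs to Pdha1.

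Promoters are shown for Pdk1, Pdk2 and Pdp2, the members that fell most. Each line gives the 250 bases before the transcript start, 5′ to 3′, from RefSeq (GRCm38.p6), at chr2:71872974-71873223, plus strand for Pdk1, chr11:95041372-95041621, minus strand for Pdk2 and chr8:104591222-104591471, plus strand for Pdp2. Where RefSeq gives several starts, the one farthest upstream is shown. Capitals mark CACGTG, an E-box, which these windows of Pdk2 and Pdp2 hold and that of Pdk1 does not.
Pdk1: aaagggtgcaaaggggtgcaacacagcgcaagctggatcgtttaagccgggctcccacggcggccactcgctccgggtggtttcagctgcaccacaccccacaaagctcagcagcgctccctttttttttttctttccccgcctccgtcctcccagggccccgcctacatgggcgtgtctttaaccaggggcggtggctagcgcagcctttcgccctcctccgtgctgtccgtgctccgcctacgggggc
Pdk2: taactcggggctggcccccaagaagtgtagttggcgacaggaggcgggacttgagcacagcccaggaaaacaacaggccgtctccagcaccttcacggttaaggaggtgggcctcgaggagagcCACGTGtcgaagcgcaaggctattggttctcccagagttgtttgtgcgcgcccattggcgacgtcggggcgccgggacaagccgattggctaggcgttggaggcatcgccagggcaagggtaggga
Pdp2: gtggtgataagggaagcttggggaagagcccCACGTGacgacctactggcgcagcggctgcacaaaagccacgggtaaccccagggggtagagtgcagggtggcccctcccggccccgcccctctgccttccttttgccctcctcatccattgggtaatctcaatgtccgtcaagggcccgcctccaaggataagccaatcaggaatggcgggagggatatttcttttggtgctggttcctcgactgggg

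Motifs were searched on both strands in the windows of the 27 members that had one, and a gene with several starts counted once if any of its windows matched. CACGTG was found in 5 (Ogdh, Pcx, Pdk2, Pdp2 and Pdpr), against 9.67% of tested genes and 6.02% of all windows. It was added after the shorter ACGTG, 1 form of the hypoxia response element core, had matched in 9 members, against 24.5% of tested genes. That form lies within CACGTG. Another form, GCGTG, was not searched, and the Pdk1 window shown holds it. TGACGTCA, the cyclic AMP response element, was found in Mdh2, Ogdh and Pdpr, against 2.9% of tested genes, and AGGTCA, a nuclear receptor half-site, in Fh1, Mpc1 and Sucla2, against 13.1%. TCAAGGTCA, the estrogen-related receptor element, CCGGAAGT, an ETS site, and the NRF1 and direct repeat 1 motifs were found in 0 members, against 0.32%, 6.25%, 1.74% and 0.0533% of tested genes. These letters describe the windows and do not show that a factor binds there.

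Within the matrix, 8 of 12 TCA cycle genes fell, with a median log2 fold change of -0.48. Cs, which condenses acetyl-CoA with oxaloacetate (chromosome 10, 128337734 to 128362479, plus strand), measured 1868, 1778, 1702 and 2067 CPM in control libraries 1 to 4 and 1356, 1388, 1074 and 1399 CPM in cKO libraries 1 to 4. It was lower in every cKO library, 1.42-fold (log2 fold change -0.51, SE 0.105, adjusted p = 0.00566). Idh3a, the catalytic subunit of NAD-dependent isocitrate dehydrogenase (chromosome 9, 54586334 to 54604661, plus strand), measured 713, 769, 797 and 836 CPM in control libraries 1 to 4 and 484, 471, 462 and 571 CPM in cKO libraries 1 to 4, with no overlap and a fall of 1.57-fold (log2 fold change -0.65, SE 0.0903, adjusted p = 0.000587). Its partner Idh3g measured 371, 326, 420.4 and 381 CPM in control libraries 1 to 4 and 273, 278, 238 and 265 CPM in cKO libraries 1 to 4, likewise apart (log2 fold change -0.51, SE 0.0907, adjusted p = 0.00248). The other partner, Idh3b, did not pass (504 ± 50.7 CPM in controls and 416 ± 41.6 CPM in cKO; log2 fold change -0.28, adjusted p = 0.0684; 0.0364 without cKO replicate 4), and the log2 ratio of Idh3a to Idh3b differed by -0.38 without overlap.

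Ogdh and Dlst, which encode subunits of the oxoglutarate dehydrogenase complex, both fell. Ogdh, its E1 subunit and per kilobase among the 3 most abundant members (chromosome 11, 6291633 to 6356642, plus strand), measured 3313, 2546, 3137 and 3558 CPM in control libraries 1 to 4 and 2035, 2159.9, 1985 and 2025 CPM in cKO libraries 1 to 4. Every cKO library lay below the controls, by 1.53-fold on average (log2 fold change -0.61, SE 0.106, adjusted p = 0.00198). Dlst, the E2 core, measured 835, 797, 815 and 869 CPM in control libraries 1 to 4 and 604, 578, 502 and 666 CPM in cKO libraries 1 to 4 and was also apart (log2 fold change -0.50, SE 0.0918, adjusted p = 0.00293).

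Succinyl-CoA ligase showed a fall of the shared alpha subunit. Suclg1 measured 316, 326, 322 and 322 CPM in control libraries 1 to 4 and 208, 212, 183 and 246 CPM in cKO libraries 1 to 4. Controls varied by a coefficient of variation of only 1.33%, and all cKO libraries were lower, 1.51-fold (log2 fold change -0.60, SE 0.0893, adjusted p = 0.000810). The beta subunits did not pass: Sucla2, the ATP-forming isoform, measured 660.2 ± 67.2 CPM in controls and 527 ± 79.8 CPM in cKO (log2 fold change -0.32, adjusted p = 0.0718; 0.0271 without cKO replicate 4) and Suclg2, the GTP-forming isoform, measured 205 ± 27.2 CPM in controls and 168 ± 9.71 CPM in cKO (log2 fold change -0.29, adjusted p = 0.0560; 0.0402 without control replicate 1 and 0.0399 without control replicate 4), although Suclg2 did not overlap between groups. Sucla2 made up 78.9 ± 0.51% of both beta transcripts per kilobase in controls and 78.3 ± 2.41% in cKO. The log2 ratio of Suclg1 to Suclg2 within a library differed by -0.32 in cKO. Its groups overlapped, with 0.41 to 0.80 in controls and 0.19 to 0.54 in cKO.

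Fh1, fumarate hydratase, measured 343, 383, 412 and 407 CPM in control libraries 1 to 4 and 269.5, 287, 238 and 322 CPM in cKO libraries 1 to 4, lower in every cKO library (log2 fold change -0.47, SE 0.101, adjusted p = 0.00685). Mdh2, which regenerates oxaloacetate, measured 958, 963, 892 and 1181 CPM in control libraries 1 to 4 and 779, 814, 636 and 774 CPM in cKO libraries 1 to 4. Its groups did not overlap either (log2 fold change -0.41, SE 0.108, adjusted p = 0.0199), but the call was lost without cKO replicate 1 (adjusted p = 0.0508) or 3 (0.0545). Idh2, the NADP-dependent matrix isoform, did not pass (1545 ± 257 CPM in controls and 1231 ± 54.5 CPM in cKO; log2 fold change -0.33, adjusted p = 0.0648; 0.0267 without control replicate 2). Of the cytosolic isoforms, Idh1 measured 72.6, 91.1, 83.2 and 71.8 CPM in control libraries 1 to 4 and 61.0, 57.7, 63.4 and 66.1 CPM in cKO libraries 1 to 4 and was lower throughout (log2 fold change -0.36, SE 0.0907, adjusted p = 0.0158), a call lost without cKO replicate 2 (adjusted p = 0.0509). Mdh1, of the malate-aspartate shuttle, did not pass (1610.2 ± 183 CPM in controls and 1364 ± 88.4 CPM in cKO; log2 fold change -0.24, adjusted p = 0.115).

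**Figure D3:**
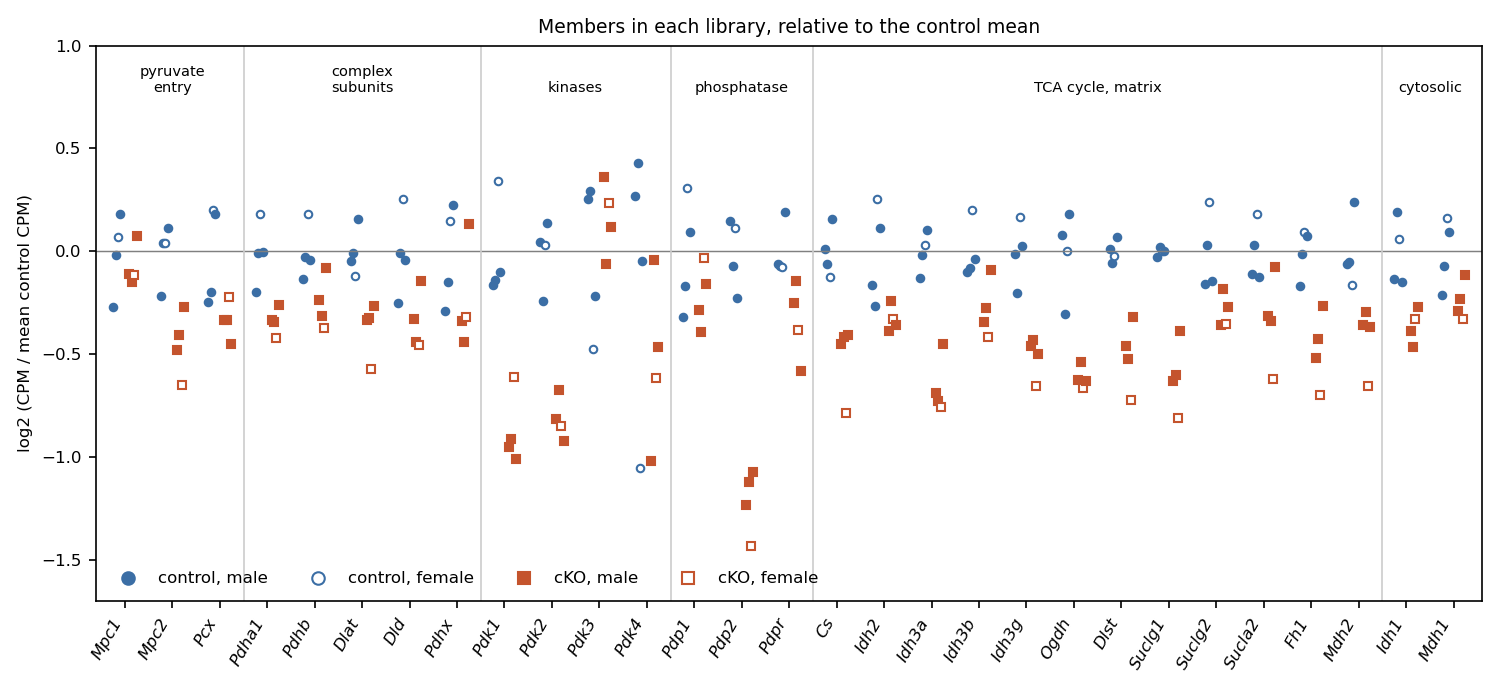
Level of each member in each of the 8 libraries as log2 of CPM over the control mean; open symbols are females. Most members are lower in all 4 cKO libraries, and cKO replicate 3 has the lowest value of its group for 17 members.

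Within a genotype the same library was often the extreme one across members. Among cKO libraries replicate 3 was lowest for 17 members and replicate 4 highest for 17. Among controls replicate 1 was lowest for 15, and replicate 3 highest for 13 and replicate 4 for 11. Control replicate 4 also held skeletal muscle transcripts (summed level 126.8 CPM, against 3.75 CPM in the lowest control), with Tnnc2 at 0 in all libraries, and without that library 16 members were called lower. Of 4 atrial markers 1 rose, Nppa (log2 fold change 2.84, adjusted p = 5.93e-05). Myl4, picked after its values were seen, was 96.0 CPM in control replicate 1 and 25.8 to 37.3 CPM in the other controls. In cKO replicate 4 it was 167.5 CPM, against 39.1 to 79.2 CPM in the other cKO libraries. Myl7 and Sln too were highest in these libraries of their genotype. Leaving out either library gave 18 members lower. The part of atrial tissue was not tested. Exons of Pdha1 overlap Map3k15 by 425 bp, those of Mdh1 overlap Wdpcp by 52 bp and those of Idh3b overlap Nop56 by 5 bp, each on the other strand. Suclg2 has a copy, Gm15163, at 98.9% identity over 1302 bp with 53 counts against 33591 for Suclg2. Mpc1 has a copy, Mpc1-ps, with no mismatch over 261 aligned bp and 279 counts against 39873 for Mpc1. How reads were split between these genes and their copies is uncertain.

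Per kilobase of exon, controls ranged from 627.3 CPM/kb for Mdh1, 597.1 for Idh2 and 575.2 for Ogdh to 12.6 for Pdp2, 9.10 for Pcx and 1.83 for Pdk3. Pdk4 reached 217.7 CPM/kb, rank 7, and rank 14 when the longest transcript gave the length. The steepest fall was in a scarce transcript, since Pdp2 went from 12.6 to 5.47 CPM/kb, and Ogdh, abundant, from 575.2 to 376.0 CPM/kb.

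**Figure D4:**
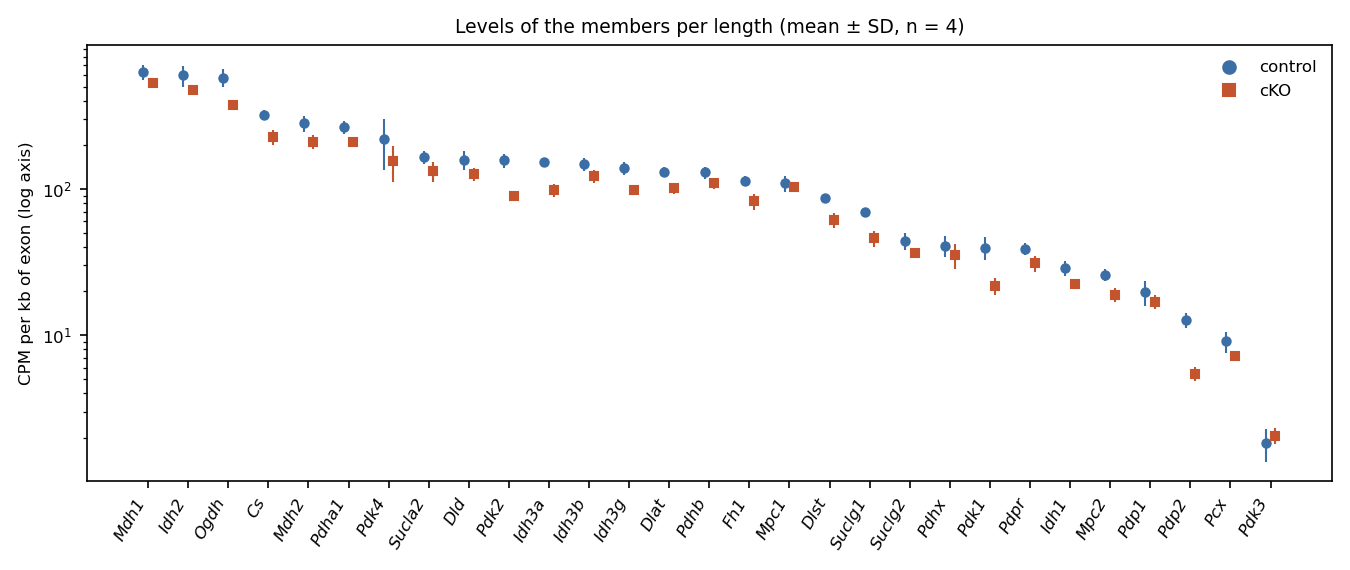
Mean level per kilobase of exon (CPM/kb, log axis) of each member in control and cKO, with SD over 4 libraries. Levels run from 1.83 CPM/kb for Pdk3 to 627.3 CPM/kb for Mdh1 in controls.

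Around these members, other steps of the pathway fell too. Over 6 neighbouring lists, 52 of 107 tested genes were lower and 3 higher (median -0.29). Among all tested genes 9.64% were lower and 9.64% higher, the share to set beside each list below. Under the respiratory chain scaling 17 of these genes were lower and 21 higher, against 343 lower and 7827 higher of all 16051 tested genes. Sdha, Sdhb, Sdhc and Sdhd of these lists are themselves among the genes used for that scaling. Other TCA steps gave 7 lower and 0 higher of 13, among them the succinate dehydrogenase genes Sdha (log2 fold change -0.53, adjusted p = 0.00238), Sdhb (log2 fold change -0.51, adjusted p = 0.00244) and Sdhc (log2 fold change -0.48, adjusted p = 0.00162) and the cytosolic aconitase Aco1 (log2 fold change -0.48, adjusted p = 0.00399); 1 of the 13 was higher at an unadjusted p under 0.05. Of 6 genes for the synthesis and attachment of lipoate, the cofactor of E2 subunits, 1 fell, Mcat (log2 fold change -0.55, adjusted p = 0.00130). In that list 2 fell without control replicate 2, with DESeq2 size factors, with the DESeq2 test and with limma-voom, and 3 with sex as a covariate. Among 26 genes of lactate, malate and anaplerosis 14 fell, including Slc25a13, the aspartate-glutamate carrier (log2 fold change -0.92, adjusted p = 4.06e-05), Got1 (log2 fold change -0.97, adjusted p = 0.000107), Me3 (log2 fold change -0.82, adjusted p = 0.000153) and Gpt2 (log2 fold change -0.72, adjusted p = 0.000575), while Slc16a1 (log2 fold change 0.38, adjusted p = 0.00586) and Me2 (log2 fold change 0.39, adjusted p = 0.0357) rose. Without control replicates 1 or 2 or cKO replicates 1, 2 or 4, 1 gene of that list rose.

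Of 16 transcription regulators of Pdk genes 5 fell and 0 rose (0 at an unadjusted p under 0.05), against 9.64% each way over all tested genes. Those that fell included Ppara, a driver of Pdk4 and fatty acid oxidation (log2 fold change -0.66, adjusted p = 0.000509), and Rxrg, 1 of its partner receptors (log2 fold change -1.29, adjusted p = 1.04e-05). Epas1 (log2 fold change -0.45, adjusted p = 0.00569) and Ppargc1b (log2 fold change -0.32, adjusted p = 0.0303) fell too. Rxra (log2 fold change -0.20, adjusted p = 0.224) and Rxrb (log2 fold change -0.15, adjusted p = 0.333), named after their values were seen, did not pass. The number that fell was 3 in males alone, with total counts and without control replicates 2 or 3 or cKO replicate 4. The Ppargc1b call was lost without control replicates 1, 2 or 3 or cKO replicates 3 or 4 (adjusted p = 0.0504 to 0.0773), in males alone (0.109) and with total counts (0.136). PPAR targets and fatty acid oxidation gave 18 lower and 0 higher of 26 (0 at an unadjusted p under 0.05), with Acaa2 (log2 fold change -0.91, adjusted p = 0.000238), Decr1 (log2 fold change -0.72, adjusted p = 0.000450), Mlycd (log2 fold change -0.69, adjusted p = 0.000314) and Etfb (log2 fold change -0.58, adjusted p = 0.000710). For these, as for the other TCA steps and lipoate lists, DESeq2 and limma-voom also gave 0 higher, whereas total counts gave 1 of the other TCA steps higher. Among 20 tested glycolysis genes 7 fell, including Pfkl (log2 fold change -1.17, adjusted p = 1.21e-05) and Eno3 (log2 fold change -0.64, adjusted p = 0.00136), and Pfkp rose (log2 fold change 0.46, adjusted p = 0.0135). Genes that rose and the cardiomyocyte markers were named after their values were seen.

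**Figure D5:**
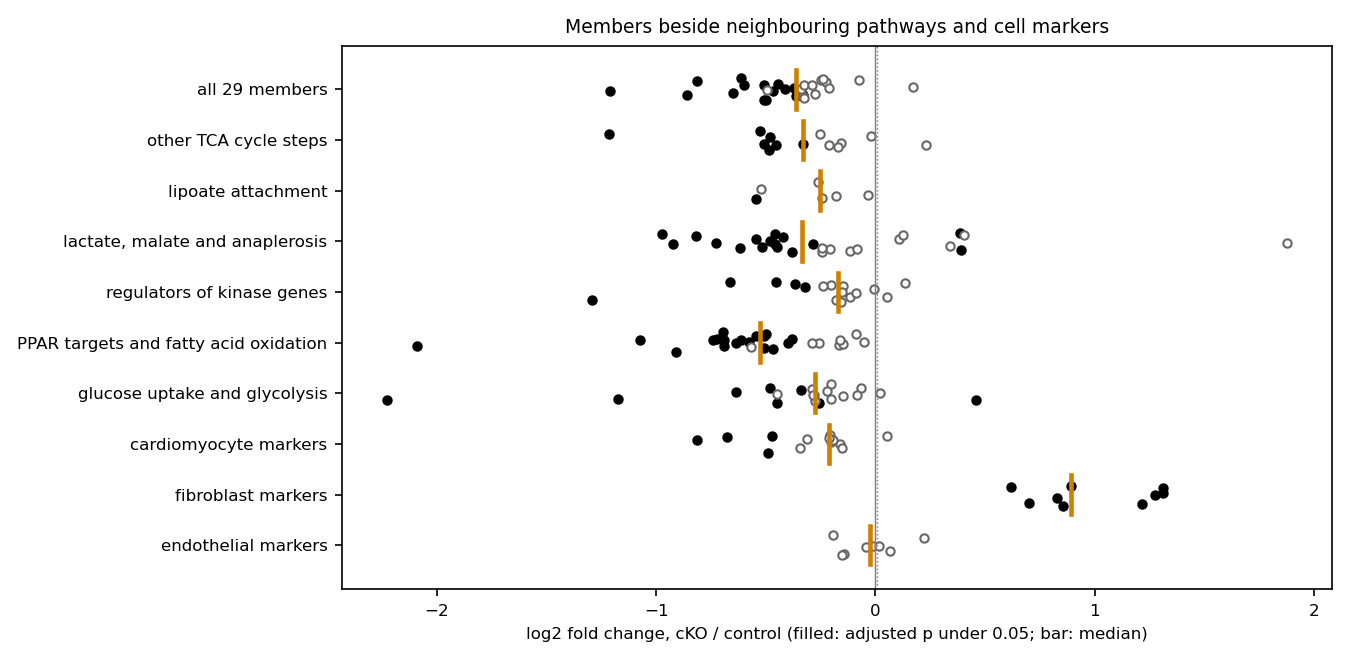
Log2 fold changes (cKO over control) of the members, the neighbouring lists and cell type markers; points are genes, filled where they passed the test, bars are list medians and the dotted line is the median of all tested genes. Medians are -0.36 for the members, -0.53 for PPAR targets and 0.89 for fibroblast markers.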

How the data were processed

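Stranded mRNA libraries of heart ventricle were made per the labels' protocols. The authors deposited whole-number counts per gene symbol in 1 table, 1 column per library. Tools listed in the submitters' processing notes, with no role, are edgeR 3.30.3, featureCounts 1.6.0, FastQC 0.11.4 and HISAT2 2.0.4, with mm10 and GRCm38 as builds. Strand setting and annotation were not given in the sources used here. The table has 54132 rows, of which 24 name no gene and held 0.115% to 0.132% of counts. These were left out.

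Counts were tested with the quasi-likelihood test of edgeR 4.0.16 (R 4.3.3, limma 3.58.1), with TMM factors, filterByExpr, genotype as the term and Benjamini-Hochberg adjustment over 16051 genes. Tests were two-sided, and the standard error is the absolute log2 fold change over the square root of F. On simulated counts of 16051 genes the same fit recovered 47.8% of genes changed 1.5-fold, 70.1% at 2-fold and 97.0% at 4-fold. In that simulation 67, 67 and 66 genes were changed, against 3095 called in these data. Its noise followed the trend of dispersion with level alone, with no spread particular to a gene and no sex effect. For both reasons the rates may differ here. Of the 146 calls in the simulation 3 were false. Replicates differed by more than sampling noise (chi-square per degree of freedom 7.09 to 31.2). Exon lengths and positions are from GENCODE M21, in which 97.7% of symbols were found. The members and gene lists were chosen with earlier results of these data known. The rule for named genes gives each called member, the kinases, the catalytic phosphatases, the main subunits and the pyruvate carrier in every library, and up to 4 called genes of each list by adjusted p. Alternatives were other scalings, filters and tools (DESeq2 1.42.0, limma-voom), robust dispersion, sex as a covariate, males only, each library left out and an adjusted p under 0.01.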

Additional observations from a re-analysis of the deposited data

Results flagged for a closer look

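In 60 groups of 4 libraries examined for a library far from its group, by Dixon's ratio of gap to range at the 95% level, chance alone gives about 1 in 20, and 4 were found. Pdk1 in control replicate 3, the female, was 389.5 CPM against 287.0 CPM in the next control (gap over range 0.889). Pdpr in control replicate 4 was 224.2 CPM (0.947), Cs in cKO replicate 3 was 1074 CPM (0.868) and Mpc1 in cKO replicate 4 was 238.7 CPM (0.835).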

How the results depend on the processing

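No paired analysis was possible because the labels give the libraries no replicate numbers shared between genotypes. Of the 16 members called lower, 12 were called in all 8 fits that left out a library, 11 in every alternative but the respiratory chain scaling and 4 in every one. The count ran from 13 to 18 with a library left out, 13 with total counts, 15 in males alone, 22 without a filter, 23 with DESeq2 and 11 at an adjusted p under 0.01. Total counts gave 1992 genes higher and 1021 lower in place of 1548 and 1547, and Mpc1 at 0.0156, and 5 neighbouring pathway genes higher in place of 3. An adjusted p under 0.01 gave 808 higher and 817 lower, and 1 pathway gene higher. The respiratory chain scaling gave 7827 genes higher and 343 lower, 17 pathway genes lower and 21 higher, 4 members lower and 1 higher, a members' median of 0.0344, and log2 fold changes turned from below to above 0 for Mpc1 (0.33), Pcx (0.0828), Pdha1 (0.0617), Pdhb (0.15), Dlat (0.0263), Dld (0.0622), Pdhx (0.18), Pdp1 (0.20), Pdpr (0.0736), Idh2 (0.0813), Idh3b (0.12), Suclg2 (0.11), Sucla2 (0.065), Idh1 (0.0344), Mdh1 (0.16) and Ppargc1b (0.0697). Pdk3, above 0 under TMM too, was at 0.56. The cause was not tested. Pdk3, at 77 reads in its lowest library, had the lowest counts of the members.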

Other observations

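A fit with genotype and sex, chosen after the values were seen, gave a female over male log2 fold change of 0.41 for Pdk1 (adjusted p = 0.0444), -0.67 for Pdk4 (adjusted p = 0.32) and 0.34 for Pdp1 (adjusted p = 0.206). Each genotype had 1 female library, so sex and that library cannot be told apart.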
